A study of Mus musculus with 8 samples.

Results

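The genes of MHC class II antigen presentation were examined in macrophages of mouse epididymal white adipose tissue (eWAT). They were chosen by name as 9 gene symbols, Cd74, H2-Aa, H2-Ab1, H2-Eb1, H2-DMa, H2-DMb1, H2-DMb2, Ciita and Cd86. All 9 were found in both expression tables, among 17740 genes listed for the high-fat diet (HFD) and 16436 for the normal diet (ND). Adhesion-related macrophages (ARMs) were those recovered from the adipocyte layer of digested eWAT, whose adipocytes were broken by vortexing with beads. Stromal vascular fraction macrophages (SMs), named NARM in the sample labels, were those that settled with the stromal vascular cells. Both were sorted by flow cytometry before RNA-seq. All 4 groups came from wild-type (WT) mice, which the study's methods give as male C57BL/6J animals put on either diet at 6 weeks of age. The HFD ARM and HFD SM groups came from mice fed HFD for 8 weeks, and the ND ARM and ND SM groups from mice fed ND. The sources used do not give the time on ND for these libraries. Each group had 2 libraries, and each library was a pool of 6 mice on HFD or of 10 mice on ND, so values of single mice were not measured and p-values measure the spread between pools.

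Dendritic cells, B cells and macrophages use MHC class II molecules to show peptides from engulfed proteins to CD4 T cells. An alpha and a beta chain pair in the endoplasmic reticulum with the invariant chain, which blocks the peptide groove until endosomal proteases cut it away, and H2-DM then exchanges the remaining fragment for an antigen peptide. The genes of this route share promoter elements called the X and Y boxes, on which RFX, CREB and NF-Y proteins gather and recruit the coactivator CIITA. A T cell also needs a second signal, and CD86 is one of the surface proteins that give it.

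Of the 9 genes, 6 lay in one cluster at chr17:34119693-34316674 of the mouse build GRCm38.p6, which held H2-DMa, H2-DMb2, H2-DMb1, H2-Ab1, H2-Aa and H2-Eb1. Ciita and Cd86 both lay on chromosome 16. The submitters named the build mm10, and coordinates below are RefSeq's on GRCm38.p6. The promoters of 4 class II genes are shown because each window held both elements in the usual order. The promoter of Cd74 was left out of this look at single genes, and no window was available for H2-Ab1, Ciita and Cd86. Each window runs 5′ to 3′ on the gene's strand from 250 bases before to 50 bases after the RefSeq start, and capitals mark an X box core (AACNGATG) or, for H2-Aa, the palindrome TGACGTCA bound by CREB proteins, followed by a Y box core (ATTGG).
H2-Aa: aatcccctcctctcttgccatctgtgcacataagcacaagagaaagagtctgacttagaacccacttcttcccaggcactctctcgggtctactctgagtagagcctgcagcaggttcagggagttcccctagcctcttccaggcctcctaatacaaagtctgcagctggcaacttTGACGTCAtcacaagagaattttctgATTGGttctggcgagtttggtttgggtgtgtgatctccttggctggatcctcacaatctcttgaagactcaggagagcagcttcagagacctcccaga
H2-Eb1: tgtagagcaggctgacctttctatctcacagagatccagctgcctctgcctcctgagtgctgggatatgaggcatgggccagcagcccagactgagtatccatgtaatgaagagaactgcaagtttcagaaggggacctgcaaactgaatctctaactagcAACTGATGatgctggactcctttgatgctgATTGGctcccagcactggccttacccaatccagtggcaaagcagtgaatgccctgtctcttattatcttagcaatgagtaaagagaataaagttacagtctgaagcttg
H2-DMb1: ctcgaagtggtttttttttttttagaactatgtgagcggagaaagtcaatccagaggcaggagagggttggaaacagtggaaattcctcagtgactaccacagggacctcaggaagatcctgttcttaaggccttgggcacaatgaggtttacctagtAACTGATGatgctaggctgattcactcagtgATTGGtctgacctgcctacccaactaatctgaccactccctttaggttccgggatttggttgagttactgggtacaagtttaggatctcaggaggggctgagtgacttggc
H2-DMb2: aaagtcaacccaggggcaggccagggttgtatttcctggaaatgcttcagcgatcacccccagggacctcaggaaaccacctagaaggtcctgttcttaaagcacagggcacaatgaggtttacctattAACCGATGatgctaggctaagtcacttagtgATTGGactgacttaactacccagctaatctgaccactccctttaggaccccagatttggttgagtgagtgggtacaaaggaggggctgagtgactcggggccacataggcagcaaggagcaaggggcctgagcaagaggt
The windows were chr17:34287774-34288073 on the minus strand for H2-Aa and, on the plus strand, chr17:34305617-34305916 for H2-Eb1, chr17:34152941-34153240 for H2-DMb1 and chr17:34144999-34145298 for H2-DMb2. Relative to the start, the first capital stood at -74 in H2-Aa, -89 in H2-Eb1, -92 in H2-DMb1 and -121 in H2-DMb2. The distance from the start of the first element to the start of the Y box core was 26 bases in H2-Aa, 30 in H2-Eb1, 31 in H2-DMb1 and 31 in H2-DMb2. Searched on both strands over 32851 RefSeq promoter windows of 300 bases, the Y box core stood in 37.4%, the X box core in 2.32% and the palindrome in 1.79%. The ordered pair on the gene's strand, with starts at most 40 bases apart, stood in 42 windows, or 0.128%. Neither of the windows listed for H2-DMa held the pair. The motifs overlapped in none of the 4 windows shown.

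H2-DMb1 and H2-DMb2 are neighbouring copies of the gene for the H2-DM beta chain. Their longest protein coding GENCODE transcripts were identical at 1142 of 1211 aligned bases, or 94.3%. Reads can therefore be shared out between them by the counting step, and the values of H2-DMb2, which had only 25.06 to 67.5 estimated counts per library, are uncertain.

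Class II transcripts were among the most abundant in these cells. By FPKM (fragments per kilobase of transcript, scaled to the size of the library), Cd74, which encodes the invariant chain, was the highest of all listed genes in both HFD ARM libraries and in 1 ND ARM library, and had rank 2 or 3 in the other libraries. The 9 genes together took 2.09% to 3.03% of all estimated counts in the HFD libraries and 1.35% to 1.96% in the ND libraries. Library totals ran from 14508824 to 19040133 counts. Of the macrophage markers stained for, Adgre1, the gene of F4/80, ranged from 306 to 339 FPKM over the 8 libraries, and Itgam, the gene of CD11b, from 119 to 145 FPKM in HFD and from 185 to 204 FPKM in ND libraries. Fewer cells of a type and less RNA per cell cannot be told apart in these bulk samples.

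**Figure D1:**
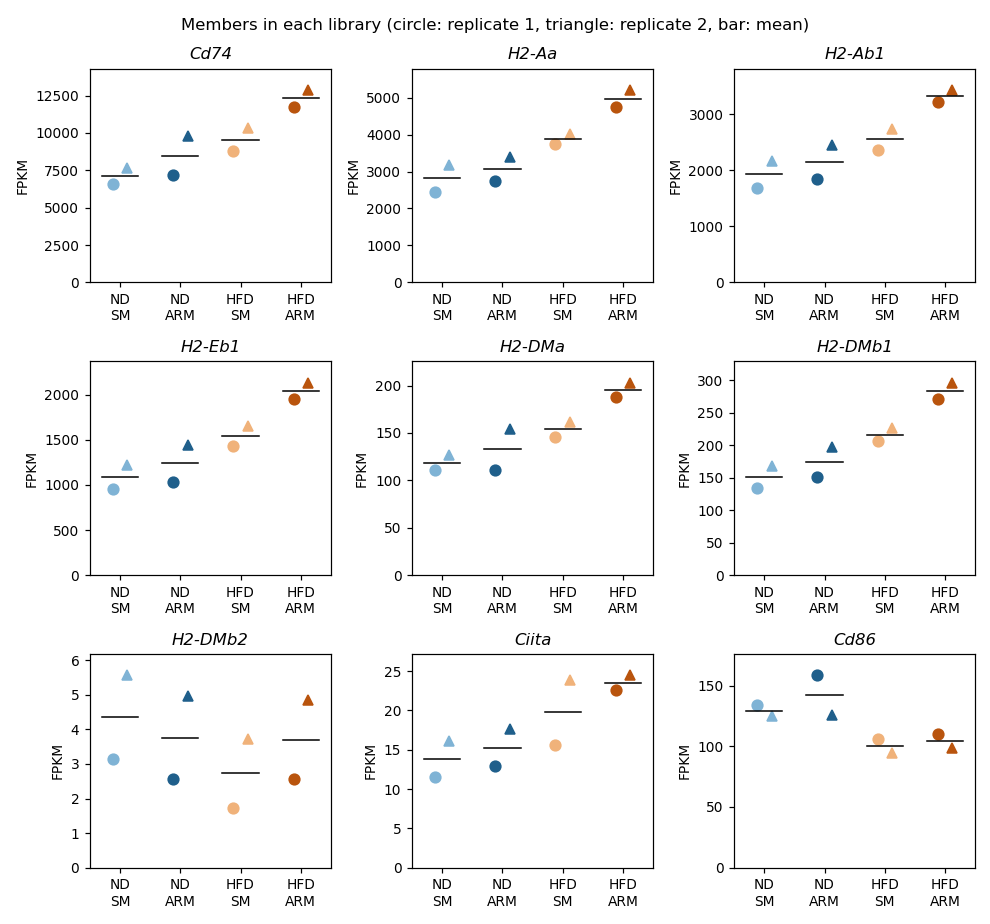
FPKM of the 9 genes in each of the 8 libraries, 1 panel per gene with its own axis from 0; circles and triangles are replicates 1 and 2, and the bar is the mean of the 2. For Cd74, H2-Aa, H2-Ab1, H2-Eb1, H2-DMa and H2-DMb1 both HFD ARM libraries stood above the other 6, while Cd86 stood lower on HFD than on ND. The share of all genes with either pattern was not counted.

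In HFD mice, the invariant chain, the 3 classical chains and both abundant H2-DM chains were higher in ARMs than in SMs, each by 1.25- to 1.30-fold. Cd74 read 11748 and 12879 FPKM in HFD ARMs against 8809 and 10312 FPKM in HFD SMs. H2-Aa, the alpha chain of the I-A molecule, read 4734 and 5206 FPKM in ARMs and 3745 and 4007 FPKM in SMs. For both genes the 2 groups did not overlap. H2-Ab1, the beta chain of I-A, read 3219 and 3436 FPKM in ARMs against 2367 and 2745 FPKM in SMs. H2-Eb1, the gene of the I-E beta chain, read 1951 and 2137 FPKM in ARMs against 1429 and 1659 FPKM in SMs. ARMs were again the higher group in every library of H2-Ab1 and H2-Eb1. The entry for the I-E alpha chain, H2-Ea-ps, read 0 to 0.13 FPKM in the HFD libraries. Levels of H2-Eb1 therefore do not stand for levels of the I-E molecule.

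The H2-DM chains, which load the peptide, followed the same order in HFD mice. H2-DMa read 188 and 203 FPKM in ARMs against 146 and 162 FPKM in SMs, and H2-DMb1 read 271 and 297 FPKM in ARMs against 206 and 226 FPKM in SMs. The groups were apart for both. H2-DMb2 read 2.57 and 4.84 FPKM in ARMs against 1.73 and 3.72 FPKM in SMs, so its groups overlapped.

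The fitted log2 fold changes of ARM over SM in HFD mice, with standard error, were 0.34 ± 0.08 for Cd74 (adjusted p = 0.0252), 0.33 ± 0.07 for H2-Aa (adjusted p = 0.0118), 0.35 ± 0.08 for H2-Ab1 (adjusted p = 0.0169) and 0.38 ± 0.08 for H2-Eb1 (adjusted p = 0.0144), tested with the quasi-likelihood method of edgeR and adjusted by Benjamini-Hochberg over 13337 genes. By the same test the values were 0.32 ± 0.07 for H2-DMa (adjusted p = 0.0199) and 0.36 ± 0.07 for H2-DMb1 (adjusted p = 0.0101). In all, 6 of the 9 genes passed an adjusted p under 0.05 and were higher in ARMs, where 6.53% of all genes tested did. The same 6 genes had both ARM libraries above both SM libraries, as 29.2% of all genes tested did. None of the 9 reached a fold change over 1.5 together with an adjusted p under 0.05, the call used in the study's volcano plots, which 4.75% of all genes met in either direction. The median over the 9 genes was 0.34, beside -0.01 over all genes tested.

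The count of 6 depended on which libraries and genes entered the fit. Without HFD ARM replicate 1 or without HFD ARM replicate 2 it was 0, without HFD SM replicate 1 it was 3 and without HFD SM replicate 2 it was 7, the seventh being Ciita. It was also 0 with no filter on low counts and in one fit of all 8 libraries. The log2 fold changes of the 6 genes stayed between 0.23 and 0.49 when any 1 library was left out, all above 0.

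**Figure D2:**
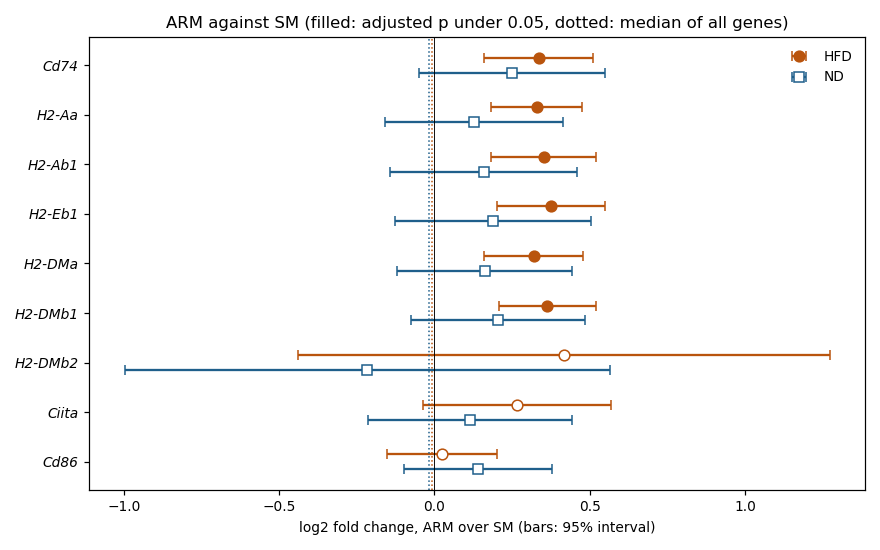
Fitted log2 fold change of ARM over SM for the 9 genes in HFD (circles) and ND mice (squares), with 95% intervals; filled symbols have an adjusted p under 0.05 and dotted lines are the medians of all genes tested. The 6 filled HFD values lie between 0.32 and 0.38, and every ND interval spans 0.

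Ciita, the coactivator on which class II transcription depends, read 22.6 and 24.5 FPKM in HFD ARMs against 15.6 and 23.9 FPKM in HFD SMs. The second SM library lay within the range of the ARMs. The log2 fold change was 0.27 ± 0.14 (edgeR, adjusted p = 0.282), and it was 0.57 without HFD SM replicate 2 and 0.02 without HFD SM replicate 1. Cd86 read 110 and 98.6 FPKM in HFD ARMs and 106 and 94.5 FPKM in HFD SMs. Its groups overlapped, and its log2 fold change was 0.02 ± 0.08 (edgeR, adjusted p = 0.901, 95% interval -0.15 to 0.20).

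In ND mice none of the 9 genes separated the 2 cell types. Cd74 read 7160 and 9784 FPKM in ND ARMs against 6574 and 7689 FPKM in ND SMs. H2-Aa read 2746 and 3399 FPKM in ARMs against 2444 and 3179 FPKM in SMs. In both genes the lower ARM library lay below the higher SM library. H2-Ab1 read 1854 and 2458 FPKM in ARMs and 1690 and 2171 FPKM in SMs, and H2-Eb1 read 1038 and 1446 FPKM in ARMs and 956 and 1225 FPKM in SMs. H2-DMa read 111 and 154 FPKM in ARMs and 111 and 127 FPKM in SMs, and H2-DMb1 read 151 and 197 FPKM in ARMs and 134 and 168 FPKM in SMs. All of these ranges overlapped. The second pool read 1.24 to 1.39 times the first in ND ARMs and 1.14 to 1.30 times the first in ND SMs for the class II genes other than H2-DMb2, where the 2 HFD ARM pools differed by 1.07 to 1.1 times.

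H2-DMb2 read 2.57 and 4.96 FPKM in ND ARMs against 3.15 and 5.57 FPKM in ND SMs. Ciita read 12.9 and 17.6 FPKM in ND ARMs against 11.5 and 16.1 FPKM in ND SMs, and Cd86 read 159 and 126 FPKM against 134 and 125 FPKM. These 3 genes overlapped between groups as well.

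The log2 fold changes in ND mice were 0.25 ± 0.14 for Cd74 (edgeR, adjusted p = 0.468), 0.13 to 0.21 for H2-Aa, H2-Ab1, H2-Eb1, H2-DMa and H2-DMb1, 0.11 for Ciita, 0.14 for Cd86 and -0.22 for H2-DMb2. In the edgeR fit without a replicate block no gene of the 9 had an adjusted or an unadjusted p under 0.05, and none had an adjusted p under 0.05 in DESeq2 or limma on log2(FPKM + 1). Of all 12441 genes tested in ND mice, 4.28% were higher in ARMs at an adjusted p under 0.05, 3.68% met the 1.5-fold call and 20.9% had both ARM libraries above both SM libraries. The median over the 9 genes was 0.16, beside -0.02 over all genes. It was -0.07 without ND ARM replicate 2 and 0.35 without ND ARM replicate 1, so its sign turned with that pool.

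**Figure D3:**
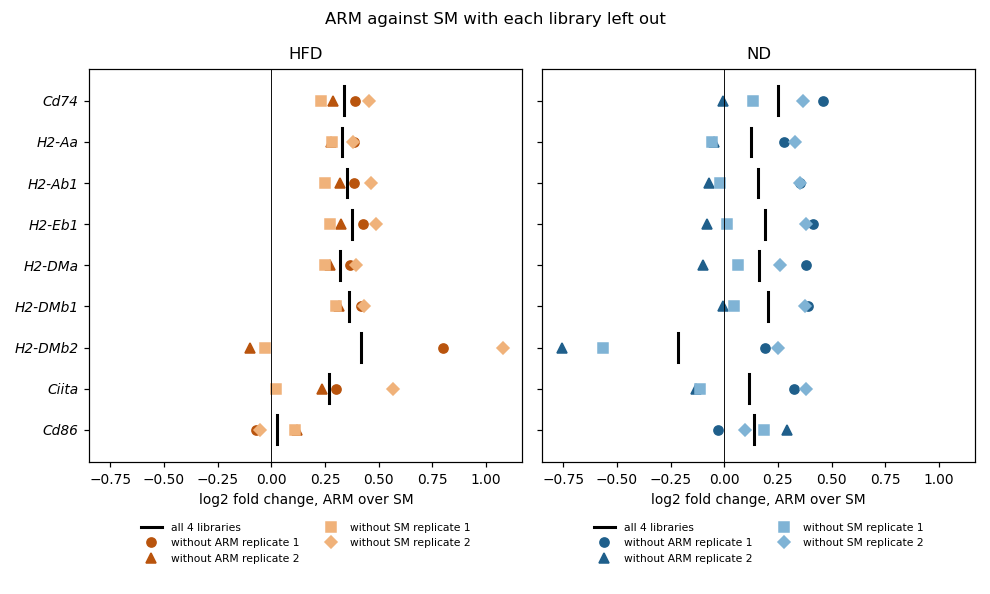
Log2 fold change of ARM over SM with all 4 libraries of a diet (black bars) and with each library left out in turn (symbols), for HFD (left) and ND mice (right). The 6 class II genes past the threshold stay to the right of 0 in HFD mice in every case, while in ND mice leaving out ARM replicate 2 moves them to between -0.10 and -0.01.

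Whether the ARM against SM change itself differed between diets was tested as an interaction in one fit of all 8 libraries, over 13358 genes. The HFD change was the larger by 0.07 to 0.19 on the log2 scale for the 6 class II genes that passed in HFD mice. The adjusted p ranged over 0.907 to 0.986 for these 6 genes (edgeR), and the 95% intervals were -0.33 to 0.47 for Cd74, -0.18 to 0.56 for H2-Aa and -0.26 to 0.61 for H2-Eb1. For Ciita the difference was 0.14 ± 0.26 and for Cd86 -0.13 ± 0.15. None of the 9 passed an adjusted p under 0.05, and none an unadjusted p under 0.05, in a test that 0.165% of all genes passed, so a difference between diets was not shown and its interval left room for changes as large as the HFD effect.

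Between diets the levels are given side by side without a test, because the 2 tables appear to have been made differently, although the sources used do not name the counter. The gene length implied by count and FPKM was 1.04 to 1.20 times as long in the HFD table for the 9 genes (median of all genes, 1.06), and H2-Q6, a class I gene with close copies, was listed at 21.5 to 32.7 FPKM in HFD libraries and at 0 to 1.16 FPKM in ND libraries. In mean FPKM, 7 genes had the order ND SM, ND ARM, HFD SM, HFD ARM from low to high, namely Cd74, H2-Aa, H2-Ab1, H2-Eb1, H2-DMa, H2-DMb1 and Ciita. How many of all genes had it was not counted. Neighbours in that order overlapped at ND SM and ND ARM in all 7. ND ARM and HFD SM overlapped for Cd74, H2-Ab1, H2-Eb1, H2-DMa and Ciita, and were apart for H2-Aa and H2-DMb1. HFD SM and HFD ARM overlapped only for Ciita among the 7.

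HFD over ND, the mean FPKM ratio in ARMs was 1.45 for Cd74, 1.62 for H2-Aa, 1.54 for H2-Ab1, 1.65 for H2-Eb1, 1.47 for H2-DMa and 1.63 for H2-DMb1. In SMs the same ratios were 1.34, 1.38, 1.32, 1.42, 1.30 and 1.43. Every HFD library stood above every ND library of the same cell type for these 6 genes. The share of all genes apart in this way was not counted, so the separation is not read as particular to these genes. Ciita had a ratio of 1.54 in ARMs, without overlap, and 1.43 in SMs, with overlap. Cd86 went the other way, at 0.733 in ARMs and 0.776 in SMs, and its HFD libraries lay below its ND libraries in both cell types. The median log2 ratio of the 9 genes was 0.63 in ARMs and 0.42 in SMs, where the medians of all genes were -0.10 and -0.12. With TMM-normalized counts in place of FPKM the medians of the 9 genes were 0.74 and 0.62.

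The class II genes rose and fell together from library to library. H2-Aa over H2-Ab1, the FPKM ratio of the 2 chains of I-A, ran from 1.38 to 1.58 over the 8 libraries, a coefficient of variation of 3.86%, while H2-Aa itself spanned 2.13-fold. Cd74 over H2-Ab1 ran from 3.54 to 3.98 and H2-Eb1 over H2-Ab1 from 0.56 to 0.622. Each ratio varied over at most 1.12-fold, although Cd74 and H2-Eb1 spanned 1.96-fold and 2.24-fold. H2-DMa over H2-DMb1 ran from 0.685 to 0.824, and Ciita over H2-Ab1 from 0.00658 to 0.00871. The least steady ratio was H2-DMb2 over H2-DMb1, from 0.0084 to 0.0332.

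The replicate numbered 2 was the higher in all 4 groups for 7 of 7 class II genes, counting Cd74 and the H2 genes. The share of all genes with this direction in the 4 groups was not counted, so it is not read as particular to these genes. H2-DMb2 aside, the second library read 1.07 to 1.17 times the first in HFD SMs and 1.14 to 1.30 times the first in ND SMs. Ciita followed, at 1.08 to 1.53 times in the 4 groups, and Cd86 was the lower in replicate 2, at 0.795 to 0.933 times. The labels do not say whether a replicate number marks a shared day or batch.

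**Figure D4:**
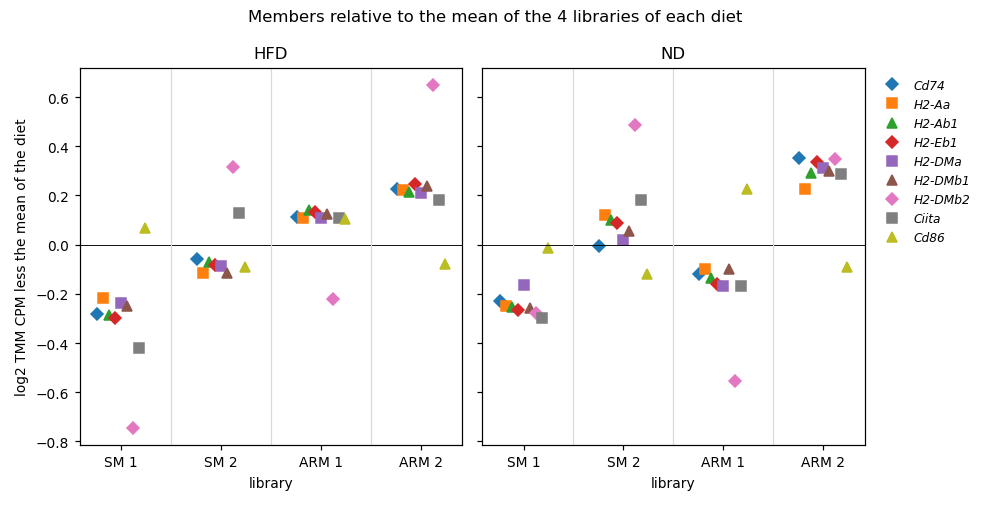
Log2 TMM-normalized CPM (counts scaled to the library's size) of each gene less the mean of the 4 libraries of its diet, by library. The class II genes other than H2-DMb2 move as a tight group, at 0.11 to 0.24 in the HFD ARM libraries and at -0.17 to -0.10 and 0.23 to 0.35 in ND ARM replicates 1 and 2, while Cd86 departs from them.

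The genes whose profile was most like the mean of the class II genes were ranked by Pearson's r over the 8 libraries, each gene taken relative to the mean of its diet, among 12334 genes. Besides the class II genes, the nearest were Rin3 (r = 0.985), Ipcef1 (0.979), Tmem51 (0.976), Ptprs (0.974) and Itgal (0.973). Their means over the 8 libraries were 12.7 FPKM for Rin3, 0.751 for Ipcef1, 12.5 for Tmem51, 12.9 for Ptprs and 2.45 for Itgal. Rin3 is a Rab5 regulator and Itgal is the alpha chain of the integrin LFA-1. H2-Ab1 had an r of 0.981 to the mean that includes it, Ciita 0.942, Rfx5 0.955 and Cd86 -0.57. These coefficients describe 8 libraries that share their diet's table and the order of replicates 1 and 2. The uncertain H2-DMb2 is in the mean, and its log2 deviations ran from -0.74 to 0.65, against -0.28 to 0.35 for Cd74.

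Rfx5, which encodes a subunit of the RFX complex on the X box, read 5.98 and 6.02 FPKM in HFD ARMs against 5.20 and 5.55 FPKM in HFD SMs. These libraries did not overlap, yet the log2 fold change was 0.13 ± 0.08 (edgeR, adjusted p = 0.417). Of 17 genes that control class II transcription or its interferon-gamma input, including Rfx5, Rfxap, Rfxank, Creb1, the NF-Y subunits, Spi1 and Irf8, none passed the adjusted p in HFD mice. In ND mice only Irf1, an interferon-induced factor, passed, and it was lower in ARMs at -0.36 ± 0.09 (edgeR, adjusted p = 0.042), where 0.458% of all genes were lower. This call was lost with limma (adjusted p = 0.0965) and without any 1 of the ND libraries. Irf1 read 228 and 227 FPKM in ND ARMs against 285 and 300 FPKM in ND SMs. The list's median log2 fold change was 0.04 in HFD and 0.02 in ND mice.

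Among 11 genes of antigen processing, 1 passed in each diet and it was the same gene. Marchf1, a membrane ubiquitin ligase that sends class II molecules and CD86 to degradation, read 29.1 and 31.0 FPKM in HFD ARMs against 42.2 and 37.2 FPKM in HFD SMs, and 39.0 and 34.2 FPKM in ND ARMs against 45.7 and 50.4 FPKM in ND SMs. Its ARM libraries were the lower in both diets. The log2 fold change was -0.43 ± 0.07 in HFD mice (edgeR, adjusted p = 0.00524), where 3.02% of all genes were lower at an adjusted p under 0.05, and -0.39 ± 0.10 in ND mice (edgeR, adjusted p = 0.0359). The ND call was lost with limma on log2(FPKM + 1), at an adjusted p of 0.119, and without ND ARM replicate 2, ND SM replicate 1 or ND SM replicate 2, and the HFD call was lost without either HFD ARM library and with no filter on low counts (edgeR, adjusted p = 0.0832). The proteases and reductase that prepare peptides did not pass in either diet. Ctss, the cathepsin that cuts the invariant chain, had log2 fold changes of 0.07 in HFD and 0.05 in ND mice, and Ifi30, the lysosomal thiol reductase, 0.05 and 0.01. The medians of the list were -0.07 and 0.01.

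Of 12 costimulation and checkpoint genes, 10 were tested within each diet and 2 passed in each. Cd274, which encodes the inhibitory ligand PD-L1, read 11.97 and 12.86 FPKM in HFD ARMs against 7.80 and 7.97 FPKM in HFD SMs. This was the 1 gene of the list past the 1.5-fold call in HFD mice, at 0.63 ± 0.07 (edgeR, adjusted p = 0.000569), and its ND value was 0.45 ± 0.15 (edgeR, adjusted p = 0.103). Tnfsf9, the ligand of 4-1BB, passed in both diets, at 0.50 ± 0.07 in HFD mice (edgeR, adjusted p = 0.00134) and 0.43 ± 0.10 in ND mice (edgeR, adjusted p = 0.0176). Cd83, whose product protects class II and CD86 from Marchf1, passed in ND mice at 0.48 ± 0.12 (edgeR, adjusted p = 0.0274) and had 0.09 ± 0.06 in HFD mice. Its difference between diets was -0.40 and did not pass (edgeR, adjusted p = 0.443). Cd80, the other ligand of CD28 besides CD86, had -0.08 and 0.14. Cd274 kept its HFD adjusted p under 0.05 without any 1 library, and Tnfsf9 lost it without HFD ARM replicate 2. In ND mice Tnfsf9 lost it without ND ARM replicate 2 or either ND SM library, Cd83 lost it without ND ARM replicate 2 or ND SM replicate 1, and both lost it with limma.

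The class I route presents peptides made in the cytosol to CD8 T cells. None of 18 class I presentation genes passed in either diet, and their median log2 fold changes were 0.00 in both diets. B2m, the light chain of class I, read 2161 and 2059 FPKM in HFD ARMs against 2263 and 2135 FPKM in HFD SMs, and its log2 fold change was -0.09 ± 0.06 (edgeR, adjusted p = 0.461). H2-K1 had -0.04 in HFD and 0.03 in ND mice. The remaining class II genes were scarce, with H2-Ob, a chain of the H2-DM inhibitor H2-DO, at 3.26 to 4.88 FPKM over the 8 libraries and H2-Oa and H2-Eb2 at 1 FPKM or less. H2-Ea-ps read 0 to 0.13 FPKM in HFD libraries and was not listed for ND.

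**Figure D5:**
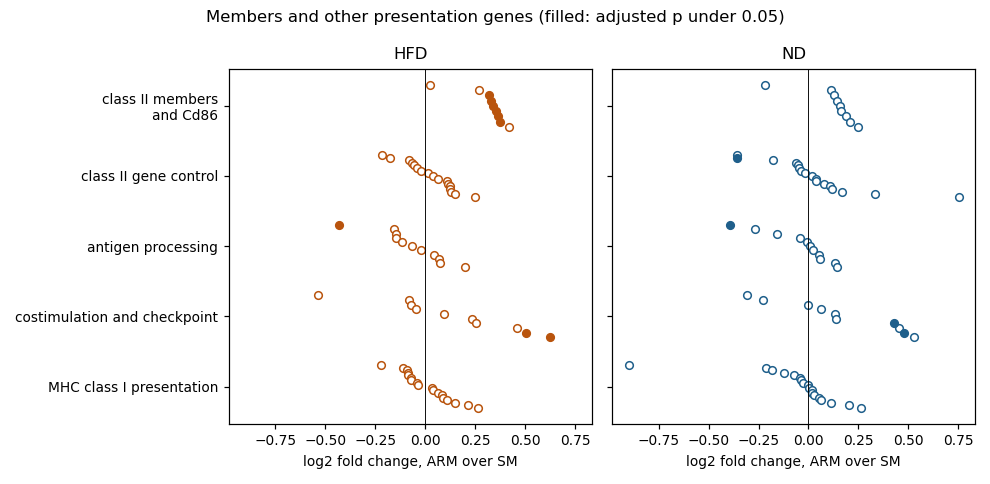
Log2 fold change of ARM over SM of each tested gene in 5 lists, in HFD (left) and ND mice (right); filled symbols have an adjusted p under 0.05. In HFD mice 6 of the 9 genes in the top row are filled (Cd86, Ciita and H2-DMb2 are open), against 0 of 17 class II control genes, 1 of 11 processing genes, 2 of 10 costimulation genes and 0 of 18 class I genes.

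Among markers of the other cells that express class II, the dendritic cell list had genes higher and lower in ARMs in HFD mice and genes higher in ND mice. Itgax in this list does not mark dendritic cells alone here. The paper measured it as an adhesion gene that was higher in ARMs, and it describes high CD11c on ARMs. Of 15 dendritic cell markers, 14 were tested, and at an adjusted p under 0.05 in ARMs 3 were higher and 2 lower in HFD mice and 2 were higher and 0 lower in ND mice. In HFD mice Itgax, the gene of CD11c, was higher at 1.05 ± 0.14 (edgeR, adjusted p = 0.00117), as were Tnip3 at 0.73 ± 0.12 (edgeR, adjusted p = 0.00473) and Fscn1 at 0.53 ± 0.13 (edgeR, adjusted p = 0.0334). These 3 calls, and those of Cd209a, Clec10a and the B cell gene Cd22 given below, were lost without HFD ARM replicate 2. Cd209a was lower at -0.48 ± 0.06 (edgeR, adjusted p = 0.00101), and Clec10a at -0.32 ± 0.07 (edgeR, adjusted p = 0.023). With 1 library left out, Cd209a stayed at -0.48 to -0.47, while Clec10a ran from -0.40 to -0.23 and Fscn1 from 0.32 to 0.71. Leaving out HFD ARM replicate 1 or HFD SM replicate 1 also lost the Clec10a call. The Fscn1 call was also lost with DESeq2, with limma on log2(FPKM + 1) and in one fit of all 8 libraries. With no filter on low counts the calls of Itgax, Tnip3, Fscn1, Clec10a and Cd22 were lost. In ND mice the 2 were Itgax at 0.67 ± 0.14 (edgeR, adjusted p = 0.0123) and Tnip3 at 0.63 ± 0.15 (edgeR, adjusted p = 0.0238), and both calls were lost without ND ARM replicate 2 or ND SM replicate 1 and with limma on log2(FPKM + 1). The summed level of the list was 537 to 566 FPKM in HFD ARMs against 632 to 663 FPKM in HFD SMs, and 758 to 790 against 849 to 866 FPKM in ND mice. Most of each sum was Clec10a, at 415 and 374 FPKM in HFD ARMs and 500 and 464 FPKM in HFD SMs. In ND mice it read 588 and 609 FPKM in ARMs and 697 and 668 FPKM in SMs. The sum therefore mainly follows that gene and does not measure the share of dendritic cells. Flt3, Clec9a and Itgae were under 1 FPKM in every library, and Zbtb46, the defining factor of classical dendritic cells, read 3.01 to 3.46 FPKM in HFD and 4.66 to 5.75 FPKM in ND libraries.

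B cell markers were near 0. Of the 8 listed, Ms4a1, Pax5, Blk and Fcmr were under 1 FPKM in every library, the 4 tested included 1 that was higher in HFD ARMs, Cd22 (1.03 ± 0.19, edgeR, adjusted p = 0.00831), and their sum was 6.31 to 7.19 FPKM in HFD ARMs against 4.83 to 5.17 FPKM in HFD SMs. Adipocyte markers moved with the ARMs, with 9 of 10 higher in HFD and 6 of 10 in ND mice and sums of 519 to 581 FPKM in HFD ARMs against 182 to 221 FPKM in HFD SMs. Endothelial markers were higher for 7 of 8 in HFD and 1 of 8 in ND mice, mesothelial markers for 0 of 6 and 5 of 6, and fibroblast markers for 7 of 8 in HFD and 8 of 8 in ND mice. Of T and NK cell markers 2 of 4 tested, Cd4 and Il7r, were higher in HFD and 0 of 3 in ND mice. In every group 7 of the 9 listed T and NK cell markers, Cd3e, Cd3d and Cd3g among them, were under 1 FPKM. Of monocyte markers 2 of 6 were higher in HFD and 1 of 6 in ND mice. Of neutrophil markers 0 of 5 were higher in HFD mice, and 1 of 6 was lower in ND mice. The summed level of 12 macrophage markers was 15500 to 16200 FPKM in HFD ARMs and 16200 to 16900 FPKM in HFD SMs. The paper proposes that ARMs acquire adipocyte RNA where they adhere, and it reports the protein of the endothelial marker Cdh5 as higher on ARMs of obese mice. Whether the marker transcripts came from other cells or from the ARMs was not tested. The part of other cells in the class II values was not tested either.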

How the data were processed

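Sorted ARMs and SMs were sequenced in 8 libraries. For each diet the authors deposited an expected (estimated) count, an FPKM and a TPM per gene and library; build mm10 was named in the submitters' notes, and the aligner and counter are not given in the sources used here. Between 32.3% and 32.9% of the deposited estimated counts were not whole in HFD and 8.55% to 9.36% in ND libraries. The 9 genes and all lists were chosen with earlier results of these data known. Counts were rounded and fitted per diet with edgeR 4.0.16 in R 4.3.3 (TMM factors 0.989 to 1.017, filterByExpr, quasi-likelihood test, Benjamini-Hochberg over all genes). The biological coefficient of variation was 5.55% in HFD and 8.61% in ND mice. Alternatives were DESeq2 1.42.0, limma 3.58.1 on log2(FPKM + 1) or log2(FPKM + 0.1), library totals, no filter, one fit, a replicate block, TPM or TMM counts for the diets, an absolute log2 fold change over 0.6 with an unadjusted p under 0.05, and each library left out. Promoters came from RefSeq (GRCm38.p6), with entries used for 5 of the 9 genes. Genes named are the 9, those of the lists, and the 5 of most similar profile. Marker lists also covered T and NK cells, monocytes, mesothelium and neutrophils. With 2 libraries per group no test of a single gene by exact permutation can pass. Some single genes of the lists are not reported here.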

Additional observations from a re-analysis of the deposited data

How the results depend on the processing

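The number of the 9 genes with an adjusted p under 0.05 in HFD mice, 6, was also 6 with library totals, DESeq2 and the replicate block, and 5 with limma on log2(FPKM + 1) or log2(FPKM + 0.1). It was 0 with no filter on low counts, in one fit of all 8 libraries and with limma without a filter, and 0 to 7 when 1 library was left out. The cause was not tested. No setting run gave a gene past the 1.5-fold call or a difference between diets.
Replicate numbers recur across groups, but over genes the difference between replicates 1 and 2 in ARMs had an r of -0.028 with that in SMs on HFD and 0.221 on ND, and 2 pairs cannot establish a pairing. With the replicate block the ND count was 1 in place of 0, Cd74 (adjusted p = 0.036), and it changed no other call of the 9 genes.
Leaving out 1 library gave medians of the 9 genes from 0.25 to 0.45 in HFD and from -0.0695 to 0.35 in ND mice, and median log2 ratios of HFD over ND from 0.42 to 0.84 in ARMs and 0.29 to 0.60 in SMs. With TMM counts the SM ratio was 0.62. Single log2 fold changes whose sign turned with a library left out ranged, on HFD, from -0.10 to 1.08 for H2-DMb2 and -0.072 to 0.12 for Cd86, and on ND from -0.0059 to 0.46 for Cd74, -0.058 to 0.33 for H2-Aa, -0.07 to 0.35 for H2-Ab1, -0.0796 to 0.41 for H2-Eb1, -0.10 to 0.38 for H2-DMa, -0.0075 to 0.39 for H2-DMb1, -0.76 to 0.25 for H2-DMb2, -0.13 to 0.38 for Ciita and -0.0305 to 0.29 for Cd86. For the difference between diets the ranges that spanned 0 were -0.10 to 0.34 for Cd74, -0.014 to 0.45 for H2-Eb1, -0.038 to 0.41 for H2-DMa, -0.011 to 0.37 for H2-DMb1, -0.11 to 0.44 for Ciita and -0.27 to 0.075 for Cd86. Of the 9 HFD and 6 ND values with an adjusted p under 0.05 among the other presentation genes and the dendritic and B cell markers named by value, none changed sign in any setting. With no filter on low counts 6 of the 9 lost it in HFD mice, and with limma on log2(FPKM + 1) 1 of the 9 in HFD and 6 of the 6 in ND mice did. Low counts limit H2-DMb2, at 25.06 to 67.5 per library.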
